A study of Rattus norvegicus with 9 samples.

Results

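The genes described here encode the electron transport chain of the inner mitochondrial membrane as far as its parts are made in the nucleus. They are the subunits of complex I (NADH dehydrogenase), complex II (succinate dehydrogenase), complex III (cytochrome bc1) and complex IV (cytochrome c oxidase), with cytochrome c. They were picked by symbol alone: names starting with Ndufa, Ndufb, Ndufc, Ndufs or Ndufv and a number, Ndufab1, Sdha to Sdhd, names starting with Uqcr, names starting with Cox and a number between 4 and 8 plus a letter, Cyc1 and Cycs. The rule takes 71 of the 24496 rows of the count table, and 59 of these 71 had enough reads to be tested. Complex I holds 38 of them, of which 34 were tested. Complex II holds 4 and complex III 9, and each of these 13 was tested. Complex IV holds 19, of which 11 were tested, and cytochrome c (Cycs) is 1 tested gene. By name the rule places Ndufa4 with complex I, although its protein is now assigned to complex IV in mammals, and it places Cox7a2l, which helps respiratory complexes to associate, with complex IV.

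Messenger RNA from snap-frozen liver was sequenced from 9 female Wistar rats, with 1 library per animal. In both groups western diet began at the age of 10 weeks, the ovaries were removed 6 weeks later, and degarelix was given. This drug blocks the receptor for gonadotropin-releasing hormone and so lowers pituitary output of luteinising and follicle-stimulating hormone (FSH). Osmotic pumps delivered FSH at 6 µg per kg per day to 4 rats, or vehicle to 5 rats. Food was limited for 12 days and then free for 7 days, and liver was taken at 19 weeks of age after a fast of 4 h. Neither group has ovaries, so the comparison is of FSH against vehicle on a background of low ovarian hormones and suppressed pituitary gonadotropins.

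NADH made in fuel oxidation gives its electrons to complex I, and succinate gives them to complex II. Ubiquinone carries them to complex III and cytochrome c to complex IV, where oxygen is reduced to water. Complexes I, III and IV pump protons as they do so, and ATP synthase uses the gradient. In liver the chain is fed largely by fatty acid oxidation and supplies ATP for glucose and urea synthesis. Each pumping complex combines a conserved catalytic core, part of it encoded in mitochondrial DNA, with nuclear-encoded accessory (supernumerary) subunits that help assembly and stability.

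No respiratory chain gene differed between FSH and vehicle livers past the threshold, an FDR of 0.05 in edgeR's quasi-likelihood test with Benjamini-Hochberg adjustment over the 11924 genes tested. The smallest FDR among the 59 was 0.222. Across all genes 4 passed, which is 0.0335% of those tested. The fold changes were nonetheless mostly on one side: 57 of 59 tested genes (96.6%) had a log2 fold change (FSH over vehicle) below 0, where the share over all tested genes was 49.5%. Their median was −0.091, against 0.0019 over all tested genes, and the quartiles over all tested genes were −0.12 and 0.13. Subunits of one chain are not independent of each other, so these 59 genes are not 59 separate observations of the animals. At an unadjusted p under 0.05 there were 6 of 59 genes (10.2%) lower with FSH, namely Ndufa10l1, Ndufa8, Ndufa10, Uqcrq, Cox8a and Cox7b, against 5.14% of all tested genes. Ndufa10l1 passed the filter on low counts mainly through the vehicle livers, and without it the count was 5 of 58 (8.62%). None of the 59 was higher with FSH at that p, against 6.42% of all tested genes. DESeq2's Wald test called 1 of the 59, Ndufa10l1, where it called 181 of the 11924 genes tested. At an unadjusted p under 0.05 DESeq2 had 7 of 59 (11.9%) lower with FSH, Ndufa10l1 again among them, against 5.41% of all tested genes.

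**Figure D1:**
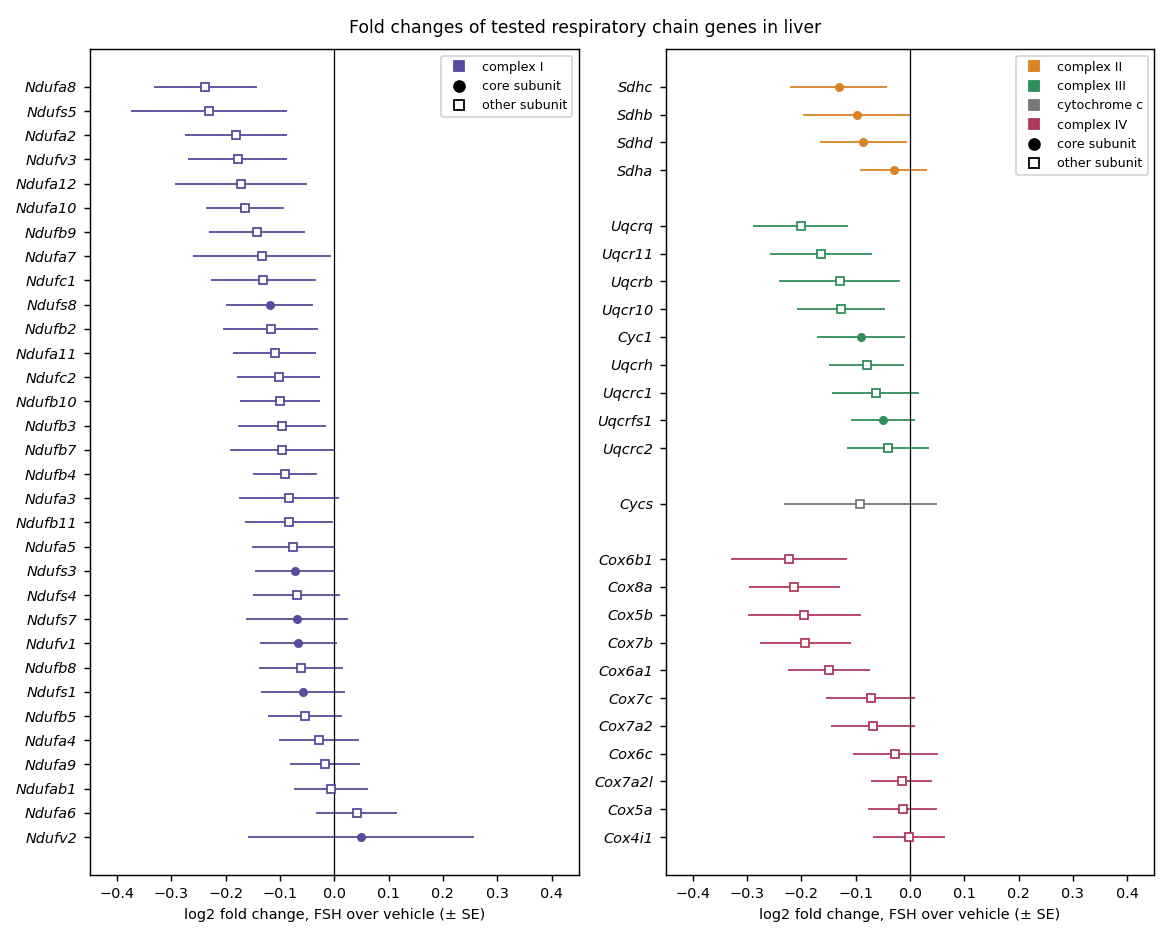
Log2 fold changes (FSH over vehicle, horizontal axis) with standard errors from edgeR for 57 tested respiratory chain genes, complex I on the left and complexes II, III, cytochrome c and complex IV on the right, filled circles for core catalytic subunits and open squares for other subunits. All but Ndufv2 and Ndufa6 lie below 0, and Ndufa10l1, at −3.33, is off the scale and not drawn.

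The FSH animals differed among themselves. For each gene the level of a library was set against the vehicle mean on the log2 scale, and the median over the 59 genes was taken. It was −0.18 in FSH replicate 1, −0.073 in replicate 2, −0.13 in replicate 3 and 0.041 in replicate 4. In vehicle replicates 1 to 5 it was 0.095, −0.047, 0.036, −0.043 and −0.041. Thus 3 FSH livers lay below every vehicle liver and FSH replicate 4 lay above 4 of 5 vehicle livers. The SD of this median between animals of a group was 0.079, close in size to the difference between the groups. FSH replicate 1 was the lowest of the 9 libraries in 33 of 59 genes and below the vehicle minimum in 45. FSH replicate 2 was below that minimum in 27 genes, replicate 3 in 37 and replicate 4 in 4. Vehicle replicate 1 was the highest of the 9 in 30 genes.

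**Figure D2:**
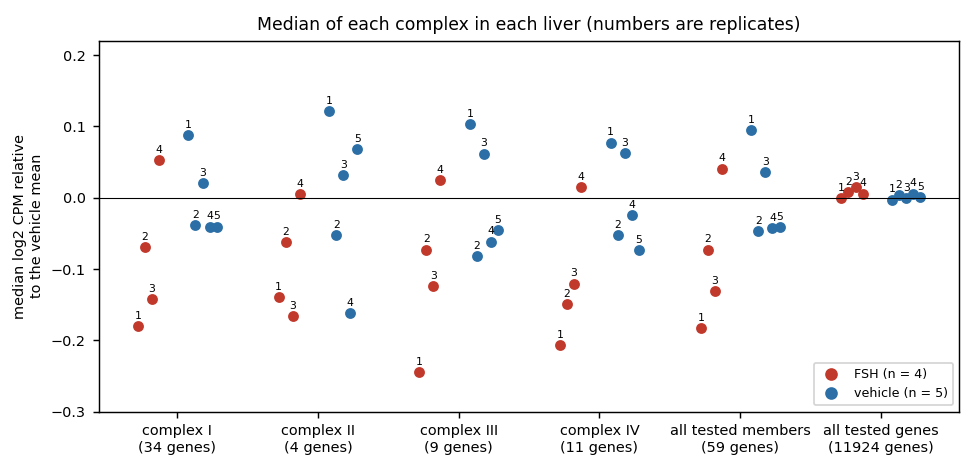
Median over the genes of each complex of log2 CPM minus the vehicle mean (vertical axis), 1 point per liver, FSH in red to the left of vehicle in blue, with replicate numbers above the points. FSH replicate 4 lies above the other 3 FSH livers in each complex, and the medians over all 11924 tested genes stay near 0 in each library.

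Summed over the 59 genes, transcripts came to 4882 ± 302 CPM in FSH livers (CPM, counts per 1000000 reads after TMM scaling; mean ± SD, n = 4) and 5180 ± 209 CPM in vehicle livers (n = 5). The ranges overlapped, with 4576 to 5287 CPM in FSH livers and 4999.5 to 5508 CPM in vehicle livers. As a share of all counts the chain took 0.427% to 0.522% in FSH livers and 0.498% to 0.534% in vehicle livers. These are levels in whole-liver RNA, in which fewer cells of a type and less RNA per cell cannot be told apart.

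Library totals and markers of liver cell types varied among the same animals. Totals lay between 23430807 and 27008941 counts in FSH libraries and between 19295580 and 28672439 counts in vehicle libraries. Albumin (Alb) took 19.4%, 12.2%, 10.5% and 13.8% of counts in FSH replicates 1 to 4 and 13.7% to 16.7% in vehicle libraries, so that the FSH libraries hold both the highest and the lowest share. The 8 hepatocyte markers, all tested, summed to between 138110 and 243390 CPM in FSH livers and between 166970 and 208110 CPM in vehicle livers, with Alb alone at 101310 to 208570 CPM with FSH and 128570 to 170870 CPM with vehicle. Of these 8 genes 7 had a log2 fold change below 0, with a median of −0.13, which is on the same side as the respiratory chain. The other, Fgb, was at 0.55, with 3 FSH livers above every vehicle liver. The median of the 8 genes relative to the vehicle mean was −0.18, −0.16, −0.28 and 0.0084 in FSH replicates 1 to 4, again highest in replicate 4. It was 0.021, −0.16, −0.024, −0.0030 and −0.075 in vehicle replicates 1 to 5. The highest sum, 243390 CPM, was in FSH replicate 1, where the median of the respiratory chain was lowest. The 6 endothelial markers, all with fold changes above 0, summed to 177 to 236 CPM with FSH and 141 to 195 CPM with vehicle. The 6 stellate cell markers, all below 0, summed to 143 to 179 CPM with FSH and 191 to 257 CPM with vehicle. Col3a1 made up most of these sums, at 101 to 129 CPM with FSH and 141 to 193 CPM with vehicle. Fold changes of the 6 ran from −0.92 (Col1a1) to −0.038 (Des) and −0.027 (Pdgfrb). The 6 Kupffer cell markers summed to 309 to 438 CPM with FSH and 163 to 496 CPM with vehicle, and the 3 cholangiocyte markers to 7.98 to 15.6 CPM with FSH and 9.36 to 17.4 CPM with vehicle. The 3 erythroid markers, all above 0, summed to 119 to 485 CPM with FSH and 73.0 to 154.5 CPM with vehicle. The part of these differences in the respiratory chain values was not tested. Markers of striated muscle, a tissue rich in respiratory chain, summed to at most 1.95 CPM with FSH and 1.42 CPM with vehicle, with Ckm and Myh7 at 0 reads, and those of fat to at most 0.244 CPM with FSH and 0.0789 CPM with vehicle, with Ucp1 and Lep at 0 reads.

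Upstream sequence is available from RefSeq (build GRCr8, not the rn6 build named for the counts) for 60 of the 71 genes and 50 of the 59 tested ones. The promoters of nuclear respiratory chain genes are known for sites of nuclear respiratory factor 1 (NRF1), of the ETS factor GABP (also called NRF2) and of YY1. The 120 bases before the annotated start are shown for 5 genes, in capitals where they hold NRF1 (CGCANGCGC) or ETS (CCGGAAGT) letters on either strand. Cox8a and Uqcrq are shown as genes lower at an unadjusted p under 0.05, Ndufv3 as one with 3 FSH livers below the vehicle range, and Sdha and Cox4i1 as genes with little difference.
Cox8a (chr1:213833624-213833743, strand minus): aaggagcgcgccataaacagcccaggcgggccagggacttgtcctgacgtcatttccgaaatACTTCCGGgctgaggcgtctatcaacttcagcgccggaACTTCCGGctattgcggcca
Uqcrq (chr10:38089979-38090098, strand minus): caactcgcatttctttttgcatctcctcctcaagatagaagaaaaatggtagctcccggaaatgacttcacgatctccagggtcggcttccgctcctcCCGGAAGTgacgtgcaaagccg
Ndufv3 (chr20:9613666-9613785, strand plus): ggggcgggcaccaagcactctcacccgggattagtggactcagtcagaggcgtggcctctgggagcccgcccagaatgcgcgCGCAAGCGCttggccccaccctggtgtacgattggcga
Sdha (chr1:30764433-30764552, strand plus): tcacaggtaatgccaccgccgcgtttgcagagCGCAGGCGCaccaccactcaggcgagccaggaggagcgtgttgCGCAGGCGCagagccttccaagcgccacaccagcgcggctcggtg
Cox4i1 (chr19:65630263-65630382, strand plus): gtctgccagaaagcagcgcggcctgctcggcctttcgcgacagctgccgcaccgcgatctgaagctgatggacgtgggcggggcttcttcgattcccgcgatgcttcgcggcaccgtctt
Cox8a holds 2 ETS matches on the minus strand of the printed sequence and Uqcrq 1 on the plus strand. Ndufv3 holds 1 NRF1 match, Sdha 2, and Cox4i1 none of these letters in this stretch.

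Over 300 bases (250 before and 50 after the start, both strands), NRF1 letters were found in 13 of 50 tested respiratory chain genes (26%) and in 12.4% of the 9959 promoters of tested genes. ETS letters were in 6 of 50 (12%) and in 8.03%. YY1 letters (AAGATGGC) were in 10 of 50 (20%) and in 5.29%. For other motifs, GC-box letters (GGGCGGG) were in 13 of 50 (26%) and in 44.4%, cyclic AMP response element letters (TGACGTCA) in 4 of 50 (8%) and in 2.85%, and ERR letters (TCAAGGTCA) in 1 of 50 (2%) and in 0.321%. Among all 33469 promoters of the RefSeq table the shares were 5.75% for NRF1, 3.81% for ETS, 3.17% for YY1, 22.7% for the GC box, 1.83% for the cyclic AMP element and 0.433% for ERR. The NRF1 and ETS letters do not overlap in the printed stretches. Genes with NRF1 letters had a median log2 fold change of −0.092 and those without −0.080, those with ETS letters −0.15 against −0.084, and those with YY1 letters −0.069 against −0.092. These are descriptions of letters in a window and show no binding.

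In complex I, 32 of 34 tested genes had fold changes below 0, with a median of −0.094. At an unadjusted p under 0.05, 3 (8.82%) were lower, against 5.14% of all tested genes. They were Ndufa8, Ndufa10 and the low-count Ndufa10l1. The last passed the filter mainly through the vehicle livers, so it should not be counted toward a difference from that share. That median was −0.15 without FSH replicate 4 and −0.052 without FSH replicate 1. The 7 nuclear-encoded core subunits, which carry the flavin and iron-sulphur clusters or line the quinone site, had a median of −0.066, and the 27 supernumerary ones −0.099; the difference was not tested. Summed, the 34 genes came to 2129 ± 140 CPM in FSH livers and 2250.3 ± 87.0 CPM in vehicle livers.

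Among the core subunits, Ndufs8 (ENSRNOG00000017446), which holds iron-sulphur clusters next to the quinone site, had 50.2, 60.6, 54.9 and 63.1 CPM in FSH livers, against 64.3, 62.2, 64.8, 62.0 and 57.2 CPM in vehicle livers (log2 fold change −0.12, SE 0.080, edgeR FDR = 0.611). FSH replicates 1 and 3 were below every vehicle liver and replicates 2 and 4 were within the vehicle range, and without FSH replicate 1 the log2 fold change was −0.061. Ndufv1, the flavin-bearing subunit where NADH binds, averaged 119 ± 8.30 CPM in FSH livers (mean ± SD, n = 4) and 125 ± 5.82 CPM in vehicle livers (n = 5), with a log2 fold change of −0.066. Ndufs1, the largest iron-sulphur subunit, averaged 87.4 ± 6.18 CPM in FSH livers and 91.0 ± 6.49 CPM in vehicle livers (−0.058). FSH replicates 1 and 3 were below every vehicle liver in Ndufv1, and FSH replicate 3 was in Ndufs1. The other FSH livers lay within the vehicle range in both genes. Ndufs3, part of the arm that meets the membrane, averaged 57.3 ± 4.16 CPM in FSH livers and 60.3 ± 3.59 CPM in vehicle livers (−0.072). Without FSH replicate 1 the log2 fold changes of Ndufv1 and Ndufs3 were −0.031 and −0.044, without FSH replicate 4 they were −0.11 and −0.12, and that of Ndufs1 was −0.013 without FSH replicate 3 and −0.088 without vehicle replicate 2. Ndufs7, which holds the last iron-sulphur cluster before ubiquinone, had 46.5, 60.1, 56.7 and 63.2 CPM in FSH livers, against 64.1, 59.4, 61.8, 55.7 and 56.0 CPM in vehicle livers (−0.069). FSH replicate 1 was the lowest of the 9 livers, and without it the log2 fold change was 0.015.

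Ndufv2, the partner of Ndufv1 in the NADH-oxidising module, was the gene with the highest fold change of the chain, and this rested on 1 animal. It had 103, 93.6, 93.3 and 98.2 CPM in FSH livers, against 113, 103, 48.3, 90.2 and 114 CPM in vehicle livers (log2 fold change 0.049, SE 0.21, edgeR FDR = 0.951). Vehicle replicate 3 stood far below the other 8 livers, and without it the log2 fold change was −0.12. The other gene above 0 was Ndufa6, a small accessory subunit of the matrix arm, with 102, 99.3, 117 and 118 CPM in FSH livers, against 102, 110.2, 111, 104 and 103 CPM in vehicle livers (log2 fold change 0.041, SE 0.075, edgeR FDR = 0.876). FSH replicates 3 and 4 exceeded every vehicle liver, and replicates 1 and 2 were below every one of them. Without FSH replicate 3 its log2 fold change was 0.00048.

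Ndufa8 (ENSRNOG00000005668), an accessory subunit on the intermembrane-space side, had 80.7, 83.3, 83.5 and 101 CPM in FSH livers, against 117, 107, 102, 93.4 and 94.6 CPM in vehicle livers (log2 fold change −0.24, SE 0.095, edgeR FDR = 0.390). FSH replicates 1 to 3 were below every vehicle liver, and FSH replicate 4 was within the vehicle range. Ndufa10 (ENSRNOG00000016470), an accessory subunit of the membrane arm, had 80.9, 83.6, 75.5 and 86.4 CPM in FSH livers, against 99.3, 84.8, 92.5, 87.1 and 93.7 CPM in vehicle livers (log2 fold change −0.16, SE 0.072, edgeR FDR = 0.418). Here too FSH replicates 1 to 3 were below the vehicle minimum, and FSH replicate 4 was above vehicle replicate 2 only. Ndufa2, an accessory subunit of the matrix arm, had 38.1, 45.9, 46.9 and 52.9 CPM in FSH livers, against 55.6, 49.7, 55.3, 51.1 and 48.8 CPM in vehicle livers (log2 fold change −0.18, SE 0.094, edgeR FDR = 0.496). Its FSH replicates 1 to 3 were below the vehicle range and FSH replicate 4 was inside it. Ndufv3, a small subunit of the NADH-oxidising module, had 17.3, 17.8, 16.9 and 22.1 CPM in FSH livers, against 20.5, 19.9, 22.8, 21.5 and 20.04 CPM in vehicle livers (log2 fold change −0.18, SE 0.092, edgeR FDR = 0.496). That gene showed the same split, with FSH replicates 1 to 3 below the vehicle minimum and FSH replicate 4 above the vehicle median. Without FSH replicate 1 the log2 fold change of Ndufa2 was −0.10, and without FSH replicate 4 that of Ndufv3 was −0.27.

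Ndufs5, a subunit of the intermembrane-space side, had 31.0, 18.02, 28.0 and 29.6 CPM in FSH livers, against 32.4, 27.5, 33.0, 30.2 and 33.5 CPM in vehicle livers (log2 fold change −0.23, SE 0.14, edgeR FDR = 0.580). FSH replicate 2 alone was far below the other animals, and without it the log2 fold change was −0.087. The remaining 20 tested complex I genes, all accessory, had log2 fold changes between −0.17 (Ndufa12) and −0.0054 (Ndufab1, the mitochondrial acyl carrier protein). For Ndufa12 the values were 6.35, 7.02, 8.02 and 9.55 CPM in FSH livers, against 9.22, 8.43, 8.98, 7.97 and 8.98 CPM in vehicle livers, at a level where 1 read is worth 0.0353 to 0.0532 CPM. Ndufb9 had 80.1, 90.5, 90.6 and 102 CPM in FSH livers, against 113, 101, 96.5, 91.8 and 98.2 CPM in vehicle livers (−0.14). At the other end Ndufab1 had 52.1, 58.3, 55.3 and 55.7 CPM in FSH livers, against 60.7, 53.7, 57.6, 53.9 and 52.0 CPM in vehicle livers, and its groups overlapped in full.

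Ndufa10l1 (ENSRNOG00000062245), a separate row named for its likeness to Ndufa10, was unlike the rest of the chain. It had 0.159, 0.325, 0.270 and 0.519 CPM in FSH livers, against 4.45, 5.26, 5.34, 0.395 and 0.425 CPM in vehicle livers, from 4, 8, 7 and 12 reads in FSH libraries and 85, 146, 151, 10 and 8 reads in vehicle libraries. Its log2 fold change of −3.33 (SE 0.86, edgeR FDR = 0.222) was the lowest of all 11924 tested genes. The vehicle livers fell into 2 levels: replicates 1 to 3 lay between 4.45 and 5.34 CPM, while replicates 4 and 5 lay within the range of the FSH livers. Of the FSH livers, replicate 4 was the 1 in which it reached the level that filter asks for. DESeq2 called it (adjusted p = 0.0180) and edgeR did not, under any alternative in which it was tested. Whether its reads are separate from those of Ndufa10 was not tested. With few reads and 2 levels among the vehicle livers, this row is treated as uncertain. The chain without it had 56 of 58 genes below 0 with the same rounded median of −0.091.

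**Figure D3:**
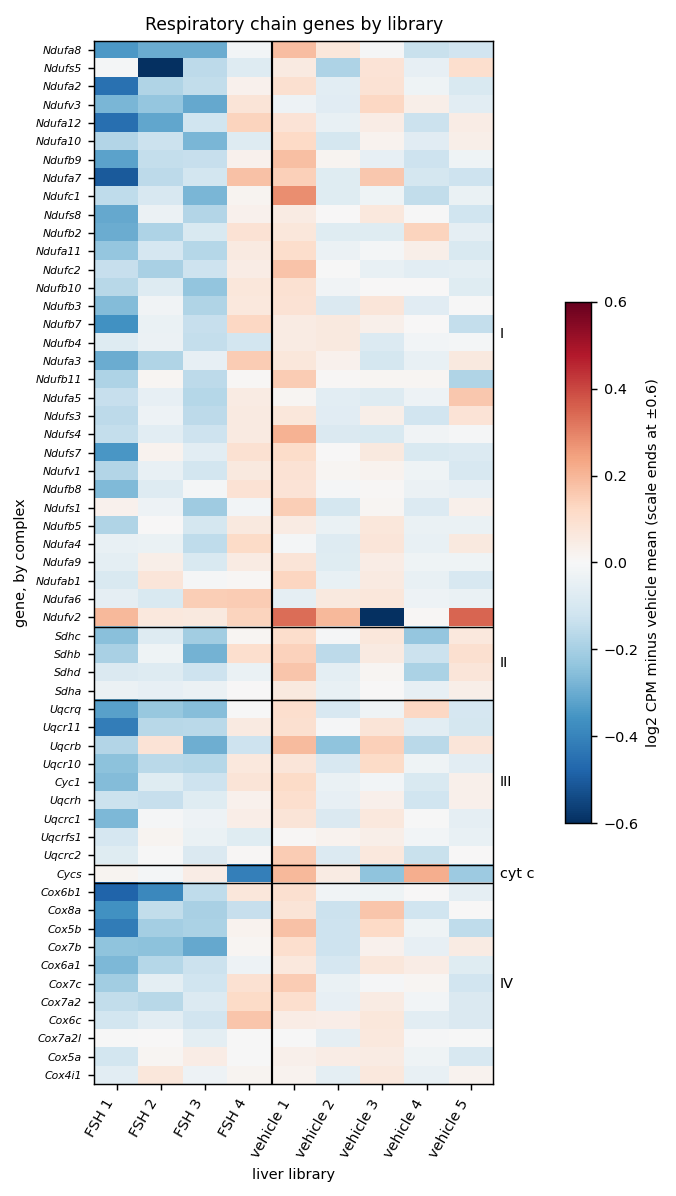
Log2 CPM minus the vehicle mean (colour, blue lower and red higher, scale ending at ±0.6) for 57 tested respiratory chain genes (rows, by complex) in the 9 livers (columns, FSH to the left of vehicle). FSH replicates 1 and 3 are mostly blue and FSH replicate 4 mostly pale or red, Ndufs5 in FSH replicate 2 and Ndufv2 in vehicle replicate 3 are single dark cells, and Ndufa10l1 is left out.

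Complex II is the dehydrogenase shared with the citric acid cycle, and all its genes are nuclear. Its 4 genes each had a fold change below 0, with a median of −0.092 and none at an unadjusted p under 0.05. Summed, they came to 591 ± 26.2 CPM in FSH livers and 622 ± 40.0 CPM in vehicle livers. The median was −0.14 without vehicle replicate 4 and −0.053 without vehicle replicate 1, and it was −0.059 without FSH replicate 3. Sdhc, a membrane anchor that binds haem and ubiquinone, had 96.1, 108, 98.8 and 115 CPM in FSH livers, against 123, 114, 119.6, 97.3 and 119 CPM in vehicle livers (log2 fold change −0.13, SE 0.089, edgeR FDR = 0.611). Vehicle replicate 4 was as low as the lowest FSH livers, and FSH replicate 4 was inside the vehicle range. Sdhb, the iron-sulphur subunit, averaged 103 ± 12.4 CPM in FSH livers (mean ± SD, n = 4) and 111 ± 10.2 CPM in vehicle livers (n = 5), with a log2 fold change of −0.098. Sdhd, the other anchor, averaged 133 ± 3.27 CPM in FSH livers and 141 ± 13.2 CPM in vehicle livers (−0.086). Sdha, the flavoprotein that binds succinate, was the most even of them, with 249, 246, 249 and 255 CPM in FSH livers, against 265, 247, 255, 247 and 261 CPM in vehicle livers (log2 fold change −0.030, SE 0.062, edgeR FDR = 0.889). Without FSH replicate 3 the log2 fold change of Sdhb was −0.043 and without FSH replicate 4 it was −0.17. Without vehicle replicate 1 those of Sdhd and Sdha were −0.042 and −0.016, and without vehicle replicate 4 they were −0.14 and −0.047.

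Complex III passes electrons from ubiquinol to cytochrome c. All 9 of its genes had fold changes below 0, with a median of −0.091. At an unadjusted p under 0.05, 1 (11.1%) was lower, against 5.14% of all tested genes. The sum of the 9 genes was 869.7 ± 58.3 CPM in FSH livers and 930.5 ± 42.9 CPM in vehicle livers. Uqcrq (ENSRNOG00000048174), a small subunit that binds cytochrome b, had 112, 121, 118 and 141 CPM in FSH livers, against 151, 132, 138, 153 and 132 CPM in vehicle livers (log2 fold change −0.20, SE 0.087, edgeR FDR = 0.414). FSH replicates 1 to 3 were below every vehicle liver and FSH replicate 4 was within their range. Uqcr11, a small subunit of the membrane part, had 56.9, 67.8, 68.0 and 79.0 CPM in FSH livers, against 81.2, 75.7, 80.1, 72.8 and 70.7 CPM in vehicle livers (log2 fold change −0.16, SE 0.094, edgeR FDR = 0.551), and Uqcr10, another small membrane subunit, had 58.7, 62.1, 61.7 and 72.7 CPM in FSH livers, against 73.1, 65.1, 75.4, 68.4 and 66.5 CPM in vehicle livers (log2 fold change −0.13, SE 0.081, edgeR FDR = 0.589). Both again had FSH replicates 1 to 3 below the vehicle minimum and FSH replicate 4 inside the range. Without FSH replicate 1 their log2 fold changes were −0.088 and −0.089, and without FSH replicate 4 they were −0.24 and −0.20.

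Uqcrq, Uqcr11 and Uqcr10 were named for the smallest p of complex III, so smaller differences in its other genes follow from that choice. Cyc1 and Uqcrfs1 are the nuclear-encoded catalytic subunits, and the fold change of Cyc1 was the median of the complex. Cyc1, which carries haem c1, averaged 113 ± 11.0 CPM in FSH livers (mean ± SD, n = 4) and 120.4 ± 6.56 CPM in vehicle livers (n = 5), with a log2 fold change of −0.091. Uqcrfs1, the Rieske iron-sulphur protein, averaged 109 ± 3.85 CPM in FSH livers and 113 ± 2.52 CPM in vehicle livers (−0.050). Without FSH replicate 1 the log2 fold changes of these 2 genes were −0.038 and −0.033, and that of Cyc1 was −0.15 without FSH replicate 4. The 2 large core proteins, which are not catalytic in the electron path, averaged 149 ± 13.6 CPM in FSH livers and 156 ± 7.68 CPM in vehicle livers for Uqcrc1 (−0.064) and 153 ± 5.06 CPM in FSH livers and 157 ± 12.4 CPM in vehicle livers for Uqcrc2 (−0.041). Cycs, the mobile carrier to complex IV, was thinly covered and had 6.63, 6.49, 6.75 and 4.93 CPM in FSH livers, against 7.49, 6.77, 5.55, 7.62 and 5.64 CPM in vehicle livers (log2 fold change −0.091, SE 0.14, edgeR FDR = 0.846). FSH replicate 4, high in most of the chain, was the lowest liver for Cycs, and without it the log2 fold change was 0.0033.

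Complex IV had fold changes below 0 in all 11 tested genes, with a median of −0.073. At an unadjusted p under 0.05, 2 (18.2%) were lower, against 5.14% of all tested genes. The median was −0.13 without FSH replicate 4, −0.041 without FSH replicate 1 and −0.042 without vehicle replicate 1. With no filter on low counts it was −0.15, with neither FSH replicate 1 nor 4 it was −0.13, and it was −0.11 without members that have another row of like name or description or lie under 1 CPM. Summed, the genes came to 1286 ± 82.2 CPM in FSH livers and 1371 ± 59.8 CPM in vehicle livers. The core of complex IV is encoded in mitochondrial DNA, and all 13 mitochondrially encoded protein genes are listed at 0 reads in each library, so the core is not measured in this table.

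Cox8a (ENSRNOG00000021177), a small membrane subunit, had 85.3, 98.9, 95.8 and 99.8 CPM in FSH livers, against 116, 100.3, 123, 101 and 109.9 CPM in vehicle livers (log2 fold change −0.21, SE 0.084, edgeR FDR = 0.387). It was the 1 gene of the 59 (1.69%) whose FSH livers all lay below all vehicle livers, which 1.92% of all tested genes did. The gap was narrow, 99.8 CPM in the highest FSH liver against 100.2 CPM in the lowest vehicle liver. Without FSH replicate 4 there were 18 of 59 such genes (30.5%), against 4.14% of all genes tested in the same fit. Without FSH replicate 2, vehicle replicate 2 or vehicle replicate 3 there were 2 each (3.39%), against 3.08%, 2.89% and 3.24% of all genes tested.

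Cox7b (ENSRNOG00000054689), another small membrane subunit, had 93.8, 93.5, 89.6 and 112 CPM in FSH livers, against 119, 102, 113, 107 and 115 CPM in vehicle livers (log2 fold change −0.19, SE 0.083, edgeR FDR = 0.413). FSH replicates 1 to 3 were below the vehicle minimum and FSH replicate 4 was within the range. Cox6b1, the subunit that joins the monomers of the complex IV dimer, had 46.8, 49.8, 58.7 and 68.5 CPM in FSH livers, against 69.8, 64.3, 64.1, 65.3 and 62.9 CPM in vehicle livers (log2 fold change −0.22, SE 0.11, edgeR FDR = 0.460). In this gene the FSH livers spread over a wider range than the vehicle livers, with 3 below it and FSH replicate 4 near its top, and the log2 fold change was −0.33 without FSH replicate 4 and −0.15 without FSH replicate 1. Cox5b, which binds zinc on the matrix side, had 93.1, 108, 109 and 126 CPM in FSH livers, against 141, 114, 135, 122 and 112 CPM in vehicle livers (log2 fold change −0.19, SE 0.10, edgeR FDR = 0.509), and without FSH replicate 1 the log2 fold change was −0.13. Cox6a1, the liver form of subunit VIa, averaged 163 ± 11.3 CPM in FSH livers (mean ± SD, n = 4) and 181 ± 10.1 CPM in vehicle livers (n = 5), with a log2 fold change of −0.15.

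Cox4i1, the largest nuclear-encoded subunit of complex IV, lay at the other end, with 309.6, 339, 317 and 327 CPM in FSH livers, against 328, 310.4, 338, 313 and 328 CPM in vehicle livers (log2 fold change −0.0019, SE 0.066, edgeR FDR = 0.997). Its groups overlapped in full and its sign turned under several alternatives. Cox5a, Cox7a2l and Cox6c had log2 fold changes of −0.014, −0.016 and −0.027, and Cox7a2, the liver form of subunit VIIa, and Cox7c had −0.068 and −0.073. That of Cox7a2 was −0.039 without FSH replicate 2 and −0.13 without FSH replicate 4. Complex IV thus ranged from −0.0019 in Cox4i1 to −0.22 in Cox6b1.

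**Figure D4:**
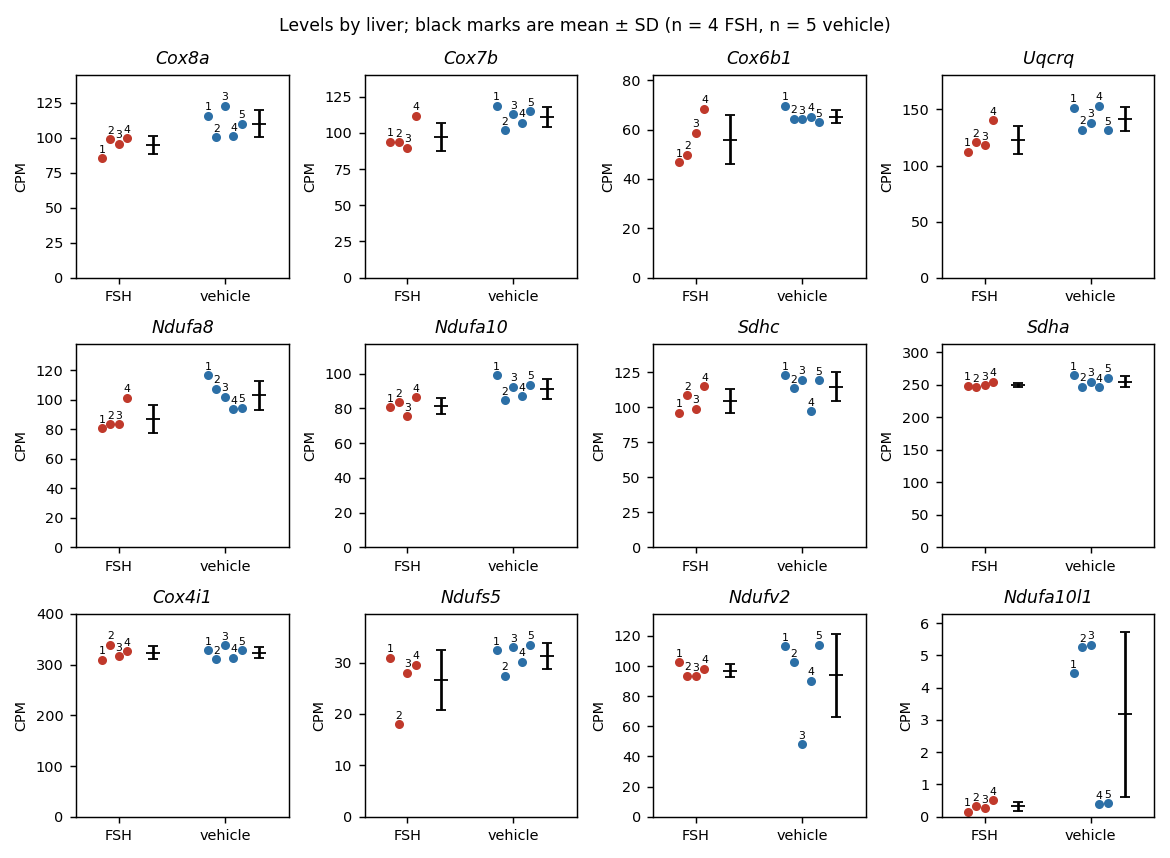
Levels in CPM (vertical axes from 0) of 12 respiratory chain genes in each liver, FSH in red to the left of vehicle in blue, with replicate numbers, and mean ± SD in black (n = 4 FSH, n = 5 vehicle). FSH replicate 4 lies above the other FSH livers in Cox7b, Cox6b1, Uqcrq and Ndufa8, Cox4i1 and Sdha are level, and single animals set the spread in Ndufs5 and Ndufv2.

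The 12 genes not tested were near or at 0 reads. Of the isoforms that other tissues use in complex IV, Cox6a2, Cox7a1 and Cox8b, the forms of heart and skeletal muscle, had at most 2 reads in any library. Cox4i2, best known from lung, had 2 to 4 reads in FSH libraries and 2 to 7 in vehicle libraries, and Cox6b2, best known from testis, had 2 to 6 reads with FSH and 4 to 5 with vehicle. Cox7b2, Cox8c, Cox6c-ps1 and Ndufb4l1 were at 0 reads in each library, and Ndufa4l2 had 0 to 3 reads with FSH and 1 to 5 with vehicle. A count of 0 allows up to 0.106 to 0.159 CPM, depending on the library and for counting error only. Ndufa1 was also listed at 0, and Ndufa13 had 1 to 7 reads with FSH and 3 to 10 with vehicle, although both encode subunits of complex I in every cell type. For Ndufa13 the table holds a second row, described as subunit 13-like, with 65.5, 78.8, 70.7 and 80.5 CPM in FSH livers, against 87.1, 76.2, 83.6, 77.2 and 70.5 CPM in vehicle livers. That row (log2 fold change −0.096) is not among the 71, and a value of 0 here does not show that a gene was not expressed.

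The core catalytic subunits and the accessory ones can be set side by side across complexes. The 13 core genes had a median log2 fold change of −0.069, with 12 of 13 below 0 and none at an unadjusted p under 0.05. The 45 other subunits had a median of −0.099, with 44 of 45 below 0 and 6 (13.3%) at that p. The 6 include the uncertain row Ndufa10l1, which passed the filter mainly through the vehicle livers. Of all tested genes 5.14% were lower at that p. The difference between these classes was not tested.

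Genes around the chain were examined as lists, and 0 genes passed FDR 0.05 in any of them. ATP synthase, which uses the proton gradient, had 15 of 17 tested genes below 0 and a median of −0.11, with none at an unadjusted p under 0.05. Its smallest p belonged to Atp5l, a subunit of the membrane part, with 130.4 ± 16.0 CPM in FSH livers (mean ± SD, n = 4) and 149 ± 10.9 CPM in vehicle livers (n = 5) (log2 fold change −0.19, SE 0.094, edgeR FDR = 0.483). Atp5s, a factor coupled to the enzyme, had a log2 fold change of −0.25. Summed, the 17 ATP synthase genes came to 3523 ± 204 CPM in FSH livers and 3603.5 ± 162 CPM in vehicle livers. Atp5b, the largest part of that sum, averaged 1406 ± 40.6 CPM in FSH livers and 1369 ± 69.6 CPM in vehicle livers (0.038). Assembly factors had 33 of 45 below 0 and a median of −0.077. At an unadjusted p under 0.05, 3 (6.67%) were lower, against 5.14% of all tested genes. Ndufaf3, needed early in complex I assembly, had 13.6, 14.4, 12.7 and 16.5 CPM in FSH livers, against 17.9, 17.5, 17.7, 16.2 and 16.5 CPM in vehicle livers (log2 fold change −0.26, SE 0.086, edgeR FDR = 0.319). FSH replicates 1 to 3 were below the vehicle range. Pet100, an assembly factor of complex IV, averaged 21.4 ± 1.85 CPM in FSH livers and 24.6 ± 1.76 CPM in vehicle livers (−0.20).

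Protein import and carriers had 12 of 16 below 0 and a median of −0.060. Tomm22 and Tomm40, of the outer membrane import pore, had −0.12 and −0.24, the second of them −0.14 without vehicle replicate 2. The citric acid cycle had 7 of 12 below 0 and a median of −0.023. Idh2, the NADP-dependent isocitrate dehydrogenase of mitochondria, averaged 34.96 ± 5.37 CPM in FSH livers (mean ± SD, n = 4) and 44.0 ± 6.09 CPM in vehicle livers (n = 5) (log2 fold change −0.33, SE 0.13, edgeR FDR = 0.372), and Fh, fumarase, had −0.21. Quinone entry and synthesis had 10 of 21 below 0 and a median of 0.0016. In that list Coq10a, a ubiquinone-binding protein, had 0.33 (0.12 without FSH replicate 1), and Coq4, of ubiquinone synthesis, had −0.37. Of the uncoupling proteins, Ucp1 and Ucp3 were at 0 reads and Ucp2 averaged 24.6 ± 3.58 CPM in FSH livers and 25.3 ± 6.13 CPM in vehicle livers (−0.039).

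The regulators of mitochondrial biogenesis were the list with its fold changes on the other side. Of its 14 tested genes 12 were above 0, with a median of 0.14. At an unadjusted p under 0.05, 1 was lower and 1 higher, as were 5.14% and 6.42% of all tested genes. The list's median relative to the vehicle mean was 0.22, 0.10, 0.12 and 0.011 in FSH replicates 1 to 4. In vehicle replicates 1 to 5 it was −0.065, 0.064, −0.063, −0.066 and 0.094, so that FSH replicate 4 lay within the vehicle range. Polrmt, the mitochondrial RNA polymerase, averaged 32.1 ± 2.31 CPM in FSH livers (mean ± SD, n = 4) and 28.1 ± 2.61 CPM in vehicle livers (n = 5) (log2 fold change 0.19, SE 0.085, edgeR FDR = 0.418). Tfb1m, a methyltransferase of mitochondrial ribosomal RNA, averaged 6.04 ± 0.657 CPM in FSH livers and 7.14 ± 0.322 CPM in vehicle livers (log2 fold change −0.24, SE 0.10, edgeR FDR = 0.397). For Nrf1 and Gabpa, whose motif letters are given with the promoters, the log2 fold changes were 0.19 and 0.14, for Yy1 0.12, and for Ppargc1a, a coactivator of the chain's genes, 0.22, none of them at an unadjusted p under 0.05. As another large group of housekeeping genes, 66 cytosolic ribosomal protein genes had 44 below 0 and a median of −0.019.

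**Figure D5:**
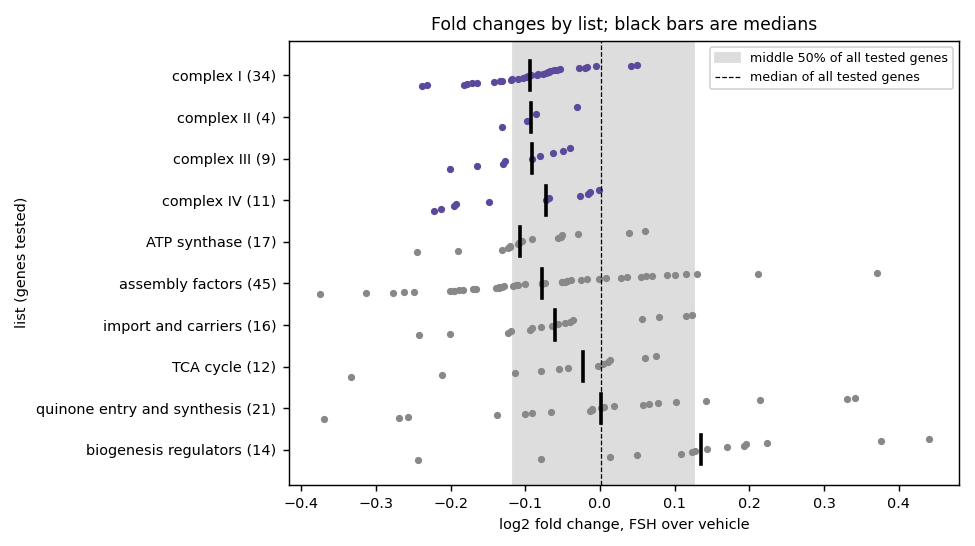
Log2 fold changes (FSH over vehicle, horizontal axis) of the tested genes of each complex (purple) and of lists around the chain (grey), with medians as black bars, the middle 50% of all tested genes as a grey band and their median as a dashed line. The complexes, ATP synthase and the assembly factors have medians left of 0, the regulators right of 0 at 0.14, and Ndufa10l1 (complex I, −3.33) is counted but off the scale.

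The count of genes at an unadjusted p under 0.05 rested on single animals to a large extent. It was 17 of 59 (28.8%) without FSH replicate 4, against 6 with all animals, and each of the 17 was lower with FSH, as were 5.11% of all genes tested in the same fit at that p. It was 1 (1.69%) without FSH replicate 1 and 1 without vehicle replicate 1, where 4.15% and 4.22% of all tested genes were lower at that p. It was 2 (3.39%) without FSH replicate 2, FSH replicate 3 or vehicle replicate 3, where the shares of all tested genes were 4.40%, 4.12% and 5.45%. Single fold changes moved as well: of the 30 respiratory chain genes examined one by one, 22 changed by over 1.5 times or turned in sign on leaving out at least 1 animal, 14 of them without FSH replicate 1 and 12 without FSH replicate 4. The direction depended on them less, with 52 genes below 0 without FSH replicate 1, 56 without FSH replicate 4 and 54 with neither of these 2 animals, a pair chosen after seeing the data because they lie at the ends of the FSH group. Of the 4 genes that passed over the whole table, none is in the respiratory chain, and the number was 0 without FSH replicate 1, FSH replicate 3, vehicle replicate 1 or vehicle replicate 4, 1 without FSH replicate 4, and 2 without vehicle replicate 3 or vehicle replicate 5.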

How the data were processed

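Liver messenger RNA was sequenced as stranded paired-end libraries, per the labels' protocols. The deposited values are whole-number read counts per gene that the authors did not normalise. Per the submitters' processing notes, STAR, edgeR, DESeq2 and build rn6 were used, with neither versions nor the annotation nor the strand setting given in the sources used here. Of 24496 rows, 8868 are 0 in all libraries.

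Counts were tested in R 4.3.3 with edgeR 4.0.16 (2-sided quasi-likelihood F-test, TMM scaling, filtering by group), with Benjamini-Hochberg adjustment over 11924 genes holding 99.962% of counts. Totals of 19295580 to 28672439 counts make 1 read worth 0.0353 to 0.0532 CPM. Standard errors come from the fold change and F. No library repeated another of its group (the chi-square per degree of freedom was at least 27.1). The steps were tested on simulated data. Members, lists and alternatives were chosen with earlier results of these data known. A gene counted in the totals is not reported here by name. Named are core subunits, Cycs, the smallest p of complexes I, III and IV and of each list, the extreme fold changes and the complex IV isoforms. Ndufa12, Ndufb9, Ndufab1, Uqcrc1, Uqcrc2, remaining complex IV genes, Atp5b, Nrf1, Gabpa, Yy1, Ppargc1a and the row beside Ndufa13 were added after their values were seen. Alternatives used DESeq2 1.42.0, limma 3.58.1, other scaling, filters, a replicate block (without vehicle replicate 5) and leaving out animals.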

Additional observations from a re-analysis of the deposited data

Results flagged for a closer look

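Of 128 sets of 4 or 5 values examined by Dixon's criterion, 7 had 1 animal far from the others of its group, where chance gives about 6.4. FSH replicate 4 was the highest FSH liver for Ndufa8, at 101.3 CPM with the next at 83.5 CPM, and for Cox6c, at 152.5 CPM with the next at 130.1 CPM. The same animal was the lowest FSH liver for Cycs, at 4.93 CPM with the next at 6.49 CPM. FSH replicate 3 was the lowest FSH liver for Cox7a2l, at 54.3 CPM with the next at 56.5 CPM. Vehicle replicate 1 was the highest vehicle liver for Ndufc1, at 47.0 CPM with the next at 38.1 CPM, for Ndufc2, at 40.1 CPM with the next at 35.5 CPM, and for Ndufs4, at 43.5 CPM with the next at 37.5 CPM.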

How the results depend on the processing

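The number of genes called over the whole table was 4, against 181 with DESeq2, 12 at an FDR of 0.10, and 0 to 4 on leaving out 1 animal each. Respiratory chain genes called were 1 with DESeq2 and 0 under the other alternatives. Those at an unadjusted p under 0.05 were 6, against 2 with the replicate block and 1 to 17 on leaving out 1 animal each. The shares of all tested genes lower at that p were 5.14%, 4.26% and 4.12% to 5.45% in turn. The replicate block was fitted without vehicle replicate 5. Leaving out that animal with no block gave 4 (6.78%), against 4.88% of all tested genes. Respiratory chain genes with all FSH livers below all vehicle livers were 1, against 2 with total counts alone and 1 to 18 on leaving out 1 animal each. For all tested genes these shares were 1.92%, 1.90% and 2.59% to 4.14% in turn. Between 52 and 57 of 59 genes were below 0 on leaving out 1 animal each, 54 with limma-voom and 62 of 65 with no filter. The median of all members lay between −0.13 and −0.061 on leaving out 1 animal each, and was −0.10 with the replicate block, and that of complex IV was −0.15 with no filter and −0.11 without members that have copies or lie under 1 CPM. The median of all tested genes stayed between −0.015 and 0.0059 under the alternatives. Signs turned in Cox4i1 (0.0081 with limma-voom, 0.0026 with the replicate block, −0.030 to 0.018 on leaving out 1 animal each), Ucp2 (0.037 with the replicate block, −0.17 to 0.068 on leaving out 1 animal each), Cycs (−0.15 to 0.0033), Ndufs7 (−0.13 to 0.015) and Ndufv2 (−0.12 to 0.13). The other 38 of 43 named genes kept their sign. The causes were not tested. Replicate numbers share no stated litter or day. Same-numbered animals had correlations of 0.035, 0.0047, 0.030 and −0.041, which show no pairing by number, and a shared litter or day was not tested. Depth limits the genes near 0 reads, and 4 against 5 animals limit the precision of small fold changes.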
